A study of Saccharomyces cerevisiae with 22 samples.

Results

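Newly made RNA of budding yeast was followed from 60 to 90 min of slow removal of the transcription factor Hsf1 from the nucleus. The comparison set the 2 arrays of the Hsf1-aa strain at 90 min against its 2 arrays at 60 min, which is 4 of the 22 arrays of the series, all chosen by their labels. It asked which genes were still changing late in the depletion and which had levelled off. The WT-aa strain at 90 and 60 min (2 arrays each) served as the control for the same interval, and the Hsf1-aa arrays at 0, 15 and 30 min gave the course before it.

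Both strains carry the anchor-away background in a MATalpha strain, By4742-aa. It combines the tor1-1 allele, a deletion of FPR1, an RPL13A-FKBP12-NAT fusion, MET15, and the his3-1, leu2, lys2 and ura3 alleles. In Hsf1-aa the HSF1 gene is also fused to FRB-yEGFP, so that rapamycin binds Hsf1 to the ribosomal protein Rpl13A and carries it out of the nucleus, while WT-aa has no such tag. Every group at 60 and 90 min had received 0.15 µM rapamycin for that time in synthetic complete medium with glucose, and the 0 min groups had received none. For the last 6 min all cultures received 5 mM 4-thiouracil (4tU), which is built into RNA as it is made. The 4tU-labelled RNA was pulled out, amplified and hybridised. Its partner on each array was pooled 4tU RNA of untreated WT-aa cells, and per the design text the arrays a and b of 1 group are separate cultures. The sample titles give a and b the same running number, so where they were dye swaps of 1 culture the p-values would measure technical spread.

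Hsf1 binds heat shock elements in promoters and drives a compact set of chaperone genes in yeast, in growing cells as well as after heat. Its targets include the Hsp90 genes and their co-chaperones, the Hsp70 system with its J-domain partners and exchange factors, the disaggregases, and factors that sort misfolded proteins. Msn2 and Msn4 drive a separate general stress programme of carbohydrate storage and small protective proteins. A list of 18 Hsf1 chaperone targets, of which 17 were tested (SSA2 was not analysed here), was read beside lists for the general stress programme, metal uptake and other processes.

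Values are log2 ratios of a sample to the reference pool unless stated, and the late step is the 90 min value minus the 60 min value. On the 20 slow arrays the median sample intensity was 863.5 to 1789 units over a background of 42 to 52 units, and 6286 to 6355 features were detected. The arrays differ in the dye of the sample, Cy3 for letter a and Cy5 for letter b, so letter and dye are 1 factor. HSF1 itself (YGL073W) read -1.70 and -1.49 in Hsf1-aa at 90 min, against -1.63 and -1.46 at 60 min. In WT-aa it read 0.04 and 0.03 at 90 min, against -0.04 and 0.01 at 60 min. Its late step in Hsf1-aa was -0.05 ± 0.23 (SE of the limma fit) and did not pass. The HSF1 signal was thus lower in Hsf1-aa than in WT-aa on every one of these arrays, and already at 0 min (-2.31 and -1.89, against 0.06 and 0.08 in WT-aa). The sources used here do not place the probe relative to the tag. The 4 alpha-specific genes had net signals of 192 to 923 times the background and the 6 a-specific genes of 1 to 5.12 times, the highest being STE2, with BAR1 at 2.26 and ASG7 at 2.19 times. Of the auxotrophic markers LEU2 and URA3 stood at 0.432 and 0.576 times the background, LYS2 at 2.33 and HIS3 at 7.79 times. FPR1 was not analysed here.

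The step from 60 to 90 min could be formed separately within each dye. Cy3 arrays are letter a and Cy5 arrays letter b, so a difference between dyes is also one between arrays a and b. Over all 6357 features the late step of the Cy3 arrays and that of the Cy5 arrays correlated at r = -0.241 in Hsf1-aa, and at r = 0.788 in WT-aa. These correlations run across genes, which are not independent replicates. In Hsf1-aa 19.2% of all features lay below 0 in both dyes and 19.3% above 0 in both, against 39.6% and 38.3% in WT-aa. Among the 17 chaperone targets, 12 lay below 0 in both dyes and 1 above 0 in both (r = 0.515 across the 17), and among 23 general stress genes 20 lay above 0 in both (r = 0.628). Cultures are bulk samples, so a change in every cell and a change in some of the cells cannot be told apart.

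Between 60 and 90 min 7 of 6357 features changed in Hsf1-aa at an adjusted p under 0.05 (0.11%), of which 6 fell (0.0944%) and 1 rose (0.0157%). All 7 are named genes. The falls were the Hsp90 genes HSC82 and HSP82, the Hsp40 gene SIS1, the metal reductase genes FRE4 and FRE1, and YLR460C, whose product is not characterised. The rise was HXK1, a hexokinase gene. By unadjusted p under 0.05 there were 258 features, or 4.06%, with 111 lower and 147 higher. The median absolute late step over all features, 0.06, was smaller than the median SE of 0.09. For scale, the preceding interval of the same length, from 30 to 60 min, had 27 calls (0.425%), of which 22 were lower (0.346%) and 5 higher (0.0787%). The 2 intervals share the 60 min arrays.

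HSC82 and HSP82 encode the constitutive and the inducible Hsp90, the chaperone that matures kinases and receptors. HSC82 (YMR186W) read -3.06 and -2.73 at 90 min, against -1.86 and -2.02 at 60 min. Both 90 min arrays lay below both 60 min arrays. Its late step was -0.96 ± 0.09 (SE, n = 2 arrays a group), a 1.94-fold fall (limma, adjusted p = 0.000964). HSP82 (YPL240C) read -3.24 and -3.06 at 90 min, against -2.0 and -2.44 at 60 min, again without overlap. Its late step was -0.93 ± 0.15 (1.91-fold; adjusted p = 0.0391). At 90 min the new RNA of HSC82 stood at 13.4% and that of HSP82 at 11.7% of the 0 min level, against 26.1% and 22.3% at 60 min. The 2 genes are near-identical copies, so the probes may read both, and the separate values are uncertain to that extent. Leaving out 1 array at a time kept the call of HSC82 each time (-0.80 to -1.11). HSP82 lost its call without the 60 min array a (adjusted p = 0.823), the 60 min array b (0.076) or the 90 min array a (0.67).

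SIS1 encodes an essential Hsp40 that hands substrates to Hsp70. SIS1 (YNL007C) read -2.69 and -2.52 at 90 min, against -1.92 and -1.87 at 60 min, so that the 2 arrays of each time lay close together and far from those of the other time. Its late step was -0.71 ± 0.09 (1.64-fold; adjusted p = 0.0041), and it stood at 14.3% of the 0 min level at 90 min and 23.4% at 60 min. The adjusted p was 0.0614, 0.076 and 0.106 without the 60 min array a, the 60 min array b and the 90 min array a. Among the other J-domain genes, YDJ1, the general cytosolic Hsp40, had a late step of -0.34 ± 0.23 (adjusted p = 1). Its Cy3 arrays (a) read -1.88 at 90 and -1.19 at 60 min and its Cy5 arrays (b) -1.59 and -1.60, so arrays a and b disagreed. APJ1, a J-domain protein of the nucleus, had a late step of -0.28 ± 0.09 (95% interval -0.47 to -0.10; adjusted p = 0.703).

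**Figure D1:**
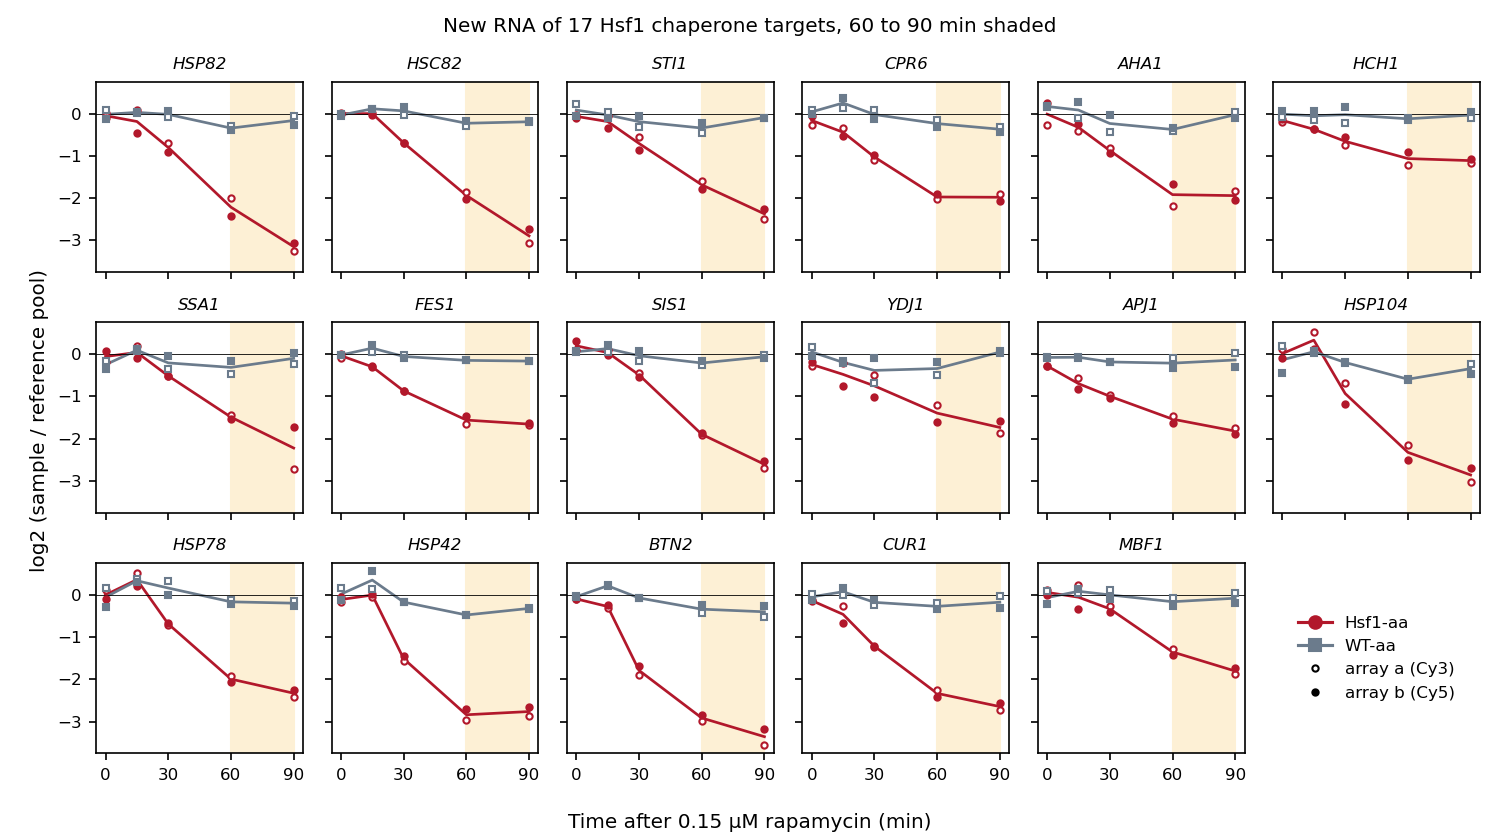
Log2 ratio of sample to reference pool (vertical) against minutes of 0.15 µM rapamycin (horizontal) for 17 Hsf1 chaperone targets in Hsf1-aa (red circles) and WT-aa (grey squares). Open and filled points are arrays a and b, lines join group means, and the shaded band is the step from 60 to 90 min. The lines of HSP82, HSC82 and SIS1 go on down inside the band, as do those of SSA1, STI1 and HSP104 among others that did not pass. Those of CPR6, AHA1, HCH1, FES1 and HSP42 run nearly flat, though arrays a and b of CPR6, AHA1 and HCH1 moved in opposite directions. The WT-aa means at 60 min lie between -0.59 (HSP104) and -0.13 (HCH1).

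Among the Hsp90 co-chaperones 0 of 4 passed, and 3 had a 95% interval within 0.5. Over all features 0.11% passed and 93.6% had such an interval, so these counts do not set the 4 apart. STI1, which bridges Hsp70 and Hsp90, read -2.49 and -2.26 at 90 min, against -1.59 and -1.79 at 60 min, and its late step of -0.69 ± 0.15 missed the threshold (adjusted p = 0.211) although the arrays did not overlap. CPR6, a peptidyl-prolyl isomerase bound to Hsp90, read -1.89 and -2.07 at 90 min, against -2.03 and -1.91 at 60 min. Its late step was -0.01, with a 95% interval of -0.26 to 0.24. AHA1, which activates the Hsp90 ATPase, had a late step of -0.02 (-0.40 to 0.35), and its relative HCH1 one of -0.05 (-0.23 to 0.13). The arrays of the 2 times overlapped for CPR6, AHA1 and HCH1, and in each of these arrays a and b moved in opposite directions. The Cy3 steps of CPR6, AHA1 and HCH1 were 0.14, 0.33 and 0.05, and the Cy5 steps -0.15, -0.38 and -0.15. CPR6 and AHA1 had fallen by 0.94 and 1.04 between 30 and 60 min (adjusted p = 0.00116 and 0.0165), and at 90 min they stood at 28.4% and 26.3% of the 0 min level, while HCH1, at 51.8%, kept the highest share of the 17.

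In the Hsp70 system SSA1, a cytosolic Hsp70, read -2.72 and -1.72 at 90 min, against -1.45 and -1.53 at 60 min. The 2 arrays at 90 min lay far apart, and the late step of -0.73 ± 0.23 did not pass (adjusted p = 0.782). It was -1.20 without the 90 min array b (adjusted p = 0.027) and -0.26 without the 90 min array a. SSA1 has near-identical relatives, so its signal may include theirs. FES1, a nucleotide exchange factor of Hsp70, read -1.67 and -1.64 at 90 min, against -1.65 and -1.47 at 60 min, a late step of -0.10 (-0.24 to 0.05).

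Genes that act on aggregates gave a spread of values. HSP104, the cytosolic disaggregase, read -3.03 and -2.69 at 90 min, against -2.14 and -2.51 at 60 min (late step -0.53 ± 0.18; adjusted p = 0.85). HSP78, its mitochondrial relative, had a late step of -0.33 ± 0.12. HSP42, a small heat-shock protein that gathers misfolded proteins, read -2.86 and -2.66 at 90 min, against -2.97 and -2.71 at 60 min, and its late step of 0.08 (-0.18 to 0.33) was the only one of the 17 above 0. BTN2 and CUR1, which sort misfolded proteins to storage sites, had late steps of -0.44 ± 0.09 (adjusted p = 0.211) and -0.31 ± 0.12 (adjusted p = 1). BTN2 read -3.55 and -3.17 at 90 min, against -2.98 and -2.85 at 60 min, and at 10.4% of its 0 min level it was the lowest of the targets at 90 min. MBF1, a transcriptional coactivator, had a late step of -0.45 ± 0.12 (adjusted p = 0.51).

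Counted together, 3 of the 17 targets fell in the late step (0.0944% of all features fell), 6 had a late step whose 95% interval lay within 0.5 on the log2 scale, and 8 were unresolved. The 6 were CPR6, AHA1, HCH1, FES1, HSP42 and APJ1, and the interval of APJ1 excluded 0. The unresolved targets were SSA1, STI1, HSP104, MBF1, BTN2, YDJ1, HSP78 and CUR1. Among all 6357 features 93.6% had such an interval within 0.5. The median late step of the targets was -0.34, against 0.00 over all features. In 11 of the 17 both 90 min arrays lay below both 60 min arrays, which held for 9.17% of all features, and in 0 did both lie above (8.05% of all features). By unadjusted p under 0.05, 11 of the 17 were lower, as were 111 of all 6357 features. The targets' median by array was -2.49 and -2.25 at 90 min, against -1.92 and -1.87 at 60 min. Within the Cy3 arrays the median step was -0.57 and within the Cy5 arrays -0.19, and 12 of the 17 had the lower value in Cy3.

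**Figure D2:**
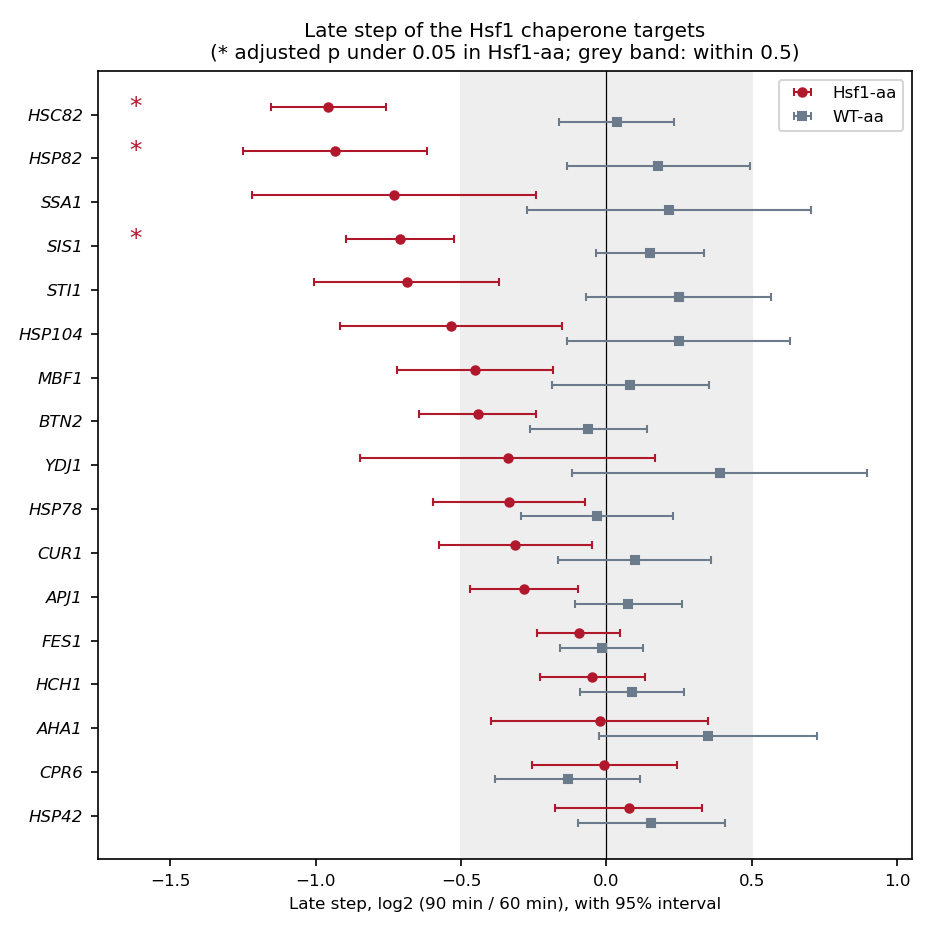
Late step (log2 of 90 over 60 min, horizontal) with its 95% interval for 17 Hsf1 chaperone targets, in Hsf1-aa (red circles) and WT-aa (grey squares). Asterisks mark the 3 targets with an adjusted p under 0.05 in Hsf1-aa, and the grey band marks steps within 0.5. Intervals of 6 targets lie inside the band in Hsf1-aa, and 16 of the 17 points lie below 0.

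All 17 targets stood below their 0 min level at 90 min, where 173 features were called (2.72%, with 1.97% lower), and at 60 min, where 126 were called (1.98%, with 1.57% lower). The targets moved less in the late interval than in the one before it. From 30 to 60 min 14 of the 17 fell (0.346% of all features fell), with a median of -1.04. The late step was smaller than that step in all 17, though both use the 60 min arrays, so a chance deviation at 60 min enters both with opposite signs. The difference between the 2 steps was tested directly and passed for 1 target, HSP42, which fell by 1.33 between 30 and 60 min and had a late step bounded near 0. Its difference of 1.40 ± 0.20 had an adjusted p of 0.0274 (0.0472% of all features passed upwards). That call was kept under 9 of 16 alternatives. For HSC82 the steps were -0.96 late and -1.24 before (difference 0.29 ± 0.16), and for HSP82 -0.93 and -1.41 (difference 0.48 ± 0.25). SIS1 had -0.71 and -1.40 (difference 0.69 ± 0.15; adjusted p = 0.271). The change by 30 min, which shares no array with the late step, did not order the targets in the same way: over the 17 r was -0.27 and Spearman's rho -0.37. BTN2 and HSP42 had fallen furthest by 30 min (-1.69 and -1.40), and HSC82, HSP82 and SIS1 by 0.69, 0.75 and 0.69.

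In WT-aa 0 of the 17 targets passed in the same interval (limma, 0 also by unadjusted p under 0.05). Over all features 5 were called in WT-aa (0.0787%), 4 of them lower (0.0629%), and 1148 by unadjusted p under 0.05. The direction of the WT-aa calls depended on the fit: 80% were lower here, against 43.2% with array quality weights, 32.9% without the 30 min arrays, 28.6% with arrays of 1 strain and 24.6% with the 4 arrays of the step. The median WT-aa step of the targets was 0.10, and 13 of the 17 lay above 0. HSC82 read -0.21 and -0.18 in WT-aa at 90 min, against -0.29 and -0.17 at 60 min, a step of 0.04 ± 0.09. SIS1 had a WT-aa step of 0.15 ± 0.09 and HSP82 one of 0.18 ± 0.15. The difference between the strains' steps passed for 2 of 6357 features (0.0315%, both lower in Hsf1-aa), against 250 by unadjusted p under 0.05. These were HSC82 at -0.99 ± 0.13 (adjusted p = 0.0288) and SIS1 at -0.86 ± 0.12 (adjusted p = 0.0316). HSP82 had a difference of -1.11 ± 0.21 (adjusted p = 0.286), SSA1 one of -0.95 ± 0.32 and STI1 one of -0.94 ± 0.21 (adjusted p = 0.733 each). Neither call held under each array left out: HSC82 lost it without the Hsf1-aa 60 min array a (adjusted p = 0.107), the Hsf1-aa 90 min array a (0.0913) and each WT-aa array (0.093 to 0.241). SIS1 lost it without any of the 8 arrays (0.0813 to 0.312).

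**Figure D3:**
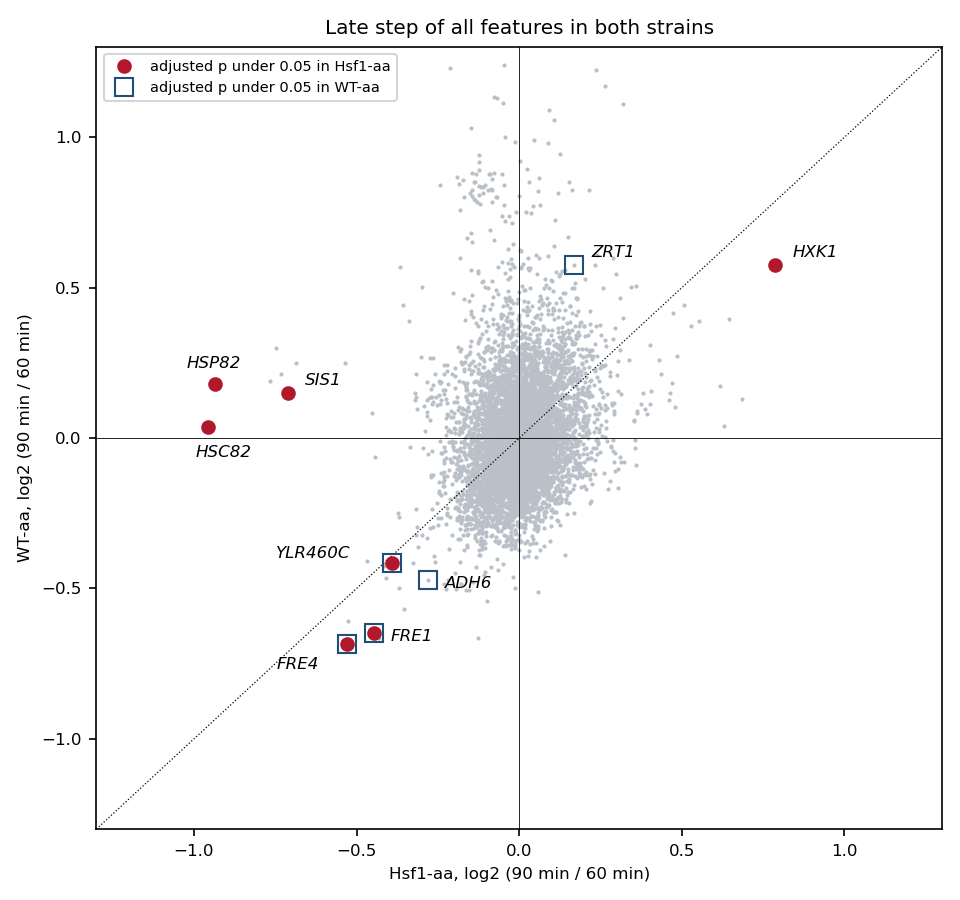
Late step in WT-aa (vertical) against that in Hsf1-aa (horizontal), both log2 of 90 over 60 min, for all features apart from 2 outside the axes. Filled red circles passed an adjusted p of 0.05 in Hsf1-aa and open blue squares in WT-aa, and the dotted line marks equal steps. HSC82, HSP82 and SIS1 lie far left near the horizontal axis, while FRE4, FRE1 and YLR460C lie near the dotted line.

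The other 3 late falls in Hsf1-aa also fell in WT-aa. FRE4 encodes a reductase for siderophore-bound iron and FRE1 a ferric and cupric reductase of the cell surface. FRE4 (YNR060W) read -1.03 and -1.09 in Hsf1-aa at 90 min, against -0.54 and -0.53 at 60 min, with both arrays of a time nearly equal. Its late step was -0.53 ± 0.06 in Hsf1-aa (adjusted p = 0.00239) and -0.69 ± 0.06 in WT-aa (adjusted p = 0.000257). FRE1 (YLR214W) read -0.25 and -0.35 at 90 min, against 0.27 and 0.02 at 60 min, for steps of -0.45 ± 0.07 in Hsf1-aa (adjusted p = 0.045) and -0.65 ± 0.07 in WT-aa (adjusted p = 0.00351). YLR460C read -0.77 and -0.76 at 90 min, against -0.45 and -0.30 at 60 min, for steps of -0.39 ± 0.06 (adjusted p = 0.0391) and -0.41 ± 0.06 (adjusted p = 0.0215). The difference between strains was 0.16 ± 0.08 for FRE4, 0.20 ± 0.10 for FRE1 and 0.02 ± 0.09 for YLR460C, and none passed. The 95% intervals of these differences were -0.02 to 0.34, -0.03 to 0.43 and -0.16 to 0.21. The calls of FRE1 and YLR460C in Hsf1-aa were close to the threshold. FRE1 lost its call under each of the 4 arrays left out, with adjusted p of 0.143 to 0.823, YLR460C lost it under 3 of the 4 (0.165 to 0.571), and FRE4 lost it without the 60 min array b (0.076).

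FRE4 did not move one way in Hsf1-aa. It fell by 30 min (-0.64, adjusted p = 0.000104), rose from 30 to 60 min (0.35, adjusted p = 0.0165) and fell again from 60 to 90 min, and the change of pace passed (-0.88 ± 0.10, adjusted p = 0.00456). In WT-aa its mean was -0.76 at 30 min, -0.75 at 60 min and -1.44 at 90 min. Of the 22 iron regulon genes tested, which are driven by Aft1 and Aft2 when iron is short, 2 fell in the late step and 0 rose (0.0944% of all features fell), with a median of -0.08 in Hsf1-aa and -0.18 in WT-aa. By unadjusted p under 0.05, 4 were lower and 0 higher in Hsf1-aa, against 111 lower of all 6357 features. Arrays a and b differed: the Cy3 step (a) had a median of -0.03 with 11 of 22 below 0. The Cy5 step (b) had a median of -0.18 with 20 of 22 below 0. TIS11, which marks mRNAs of iron-using proteins for decay, had a late step of -0.33 ± 0.11 (adjusted p = 0.85) and the siderophore transporter gene ARN1 one of -0.31 ± 0.14. Further WT-aa calls were ZRT1, a zinc transporter (0.17 in Hsf1-aa, 0.57 in WT-aa; difference -0.40 ± 0.10, adjusted p = 0.733), and ADH6, an alcohol dehydrogenase that uses NADPH (-0.28 in Hsf1-aa, -0.47 in WT-aa).

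HXK1, the single late rise, encodes a hexokinase that is induced when glucose runs low. HXK1 (YFR053C) read 0.53 and 0.62 in Hsf1-aa at 90 min, against -0.34 and -0.09 at 60 min. Its late step was 0.79 ± 0.13 (1.73-fold; adjusted p = 0.043), and it passed under none of the 4 arrays left out (adjusted p of 0.151 to 0.823). In WT-aa it read 0.71 and 0.72 at 90 min, against 0.17 and 0.11 at 60 min, a step of 0.58 ± 0.13 (adjusted p = 0.189), and the difference between strains of 0.21 ± 0.18 did not pass. HXK1 belongs to the general stress list of 23 genes, in which it alone rose and 0 fell (0.0157% of all features rose). Of the 23, 22 lay above 0 with a median of 0.36, against 19 with a median of 0.16 in WT-aa. Over all features 3160 of 6357 lay below 0 in Hsf1-aa. By unadjusted p under 0.05, 15 of the 23 were higher in Hsf1-aa, against 147 of all 6357 features. In WT-aa 10 of the 23 were higher by unadjusted p, against 627 of all features. GPH1, glycogen phosphorylase, stood at 0.69 ± 0.17, HSP12, a small membrane-protecting protein, at 0.55 ± 0.12, GLK1, glucokinase, at 0.53 ± 0.15 and TFS1, an inhibitor of carboxypeptidase Y, at 0.41 ± 0.08. None of these 4 passed. The list median by array was 0.11 and 0.15 in Hsf1-aa at 90 min, against -0.26 and -0.08 at 60 min. Outside the list RTC3 stood at 0.64 ± 0.14 (adjusted p = 0.211).

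The same list had moved the other way before 60 min. Its median from 30 to 60 min in Hsf1-aa was -0.29 and all 23 lay below 0, against 3260 of all 6357 features. That step shares the 60 min arrays with the late one. HSP12 passed in that step (-1.28, adjusted p = 0.000158), and its change of pace was the largest of those called, at 1.84 ± 0.22 (adjusted p = 0.00456). HSP12 means in Hsf1-aa were -0.02 at 0 min, 1.07 at 15 min, 0.66 at 30 min, -0.62 at 60 min and -0.07 at 90 min. In WT-aa they were -0.08, 0.70, 0.70, -0.16 and 0.23 at the same times. The list median by array in WT-aa was 0.35 and 0.19 at 30 min and -0.01 and -0.04 at 60 min. At 90 min it was 0.15 and 0.12, so the list dipped and recovered in WT-aa too. The change of pace was not tested in WT-aa. HXK1 had a change of pace of 1.40 ± 0.22 (adjusted p = 0.0492). With FRE4 and HSP42 these made the 4 features called for a change of pace (0.0629%). Without the Hsf1-aa 60 min array b 0 passed.

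Genes that had already changed by 30 min were read as a group, since that change and the late step share no array. Both take each gene's SE from the same fit, however. A small SE favours a call at 30 min, a late call and a narrow late interval, so the late counts are not independent of the choice. In Hsf1-aa 44 features differed between 30 and 0 min (0.692%), 34 lower (0.535%) and 10 higher (0.157%). Of the 34, 13 were chaperone targets. In the late step 4 of the 34 were still falling (HSP82, HSC82, SIS1 and FRE4), where 0.0944% of all features fell. A further 24 of the 34 had an interval within 0.5, a smaller share than the 93.6% over all features, and 6 were unresolved. Of the 24, 4 had an interval that excluded 0. The median late step was -0.31 over the 13 targets and -0.11 over the other 21. Early fallers with a late step bounded within 0.5 included HSP30, a plasma membrane stress protein (-0.91 by 30 min, late step 0.02), the mitochondrial Hsp70 SSC1 (-0.67, -0.11) with its J-domain partner MDJ1 (-0.57, -0.13), and the mitochondrial co-chaperonin HSP10 (-0.64, -0.03). SSA4, an inducible Hsp70, stood at -0.61 by 30 min and -0.09 in the late step, and SSE1, an Hsp110 exchange factor, at -0.65 and -0.27. SSE1 read -1.66 and -1.49 at 90 min, against -1.25 and -1.36 at 60 min. RPN4, the activator of proteasome genes, stood at -0.47 and -0.23, and the glycolytic gene PGK1 at -0.58 and 0.06. FLR1, a drug exporter of the Yap1 response, was unresolved at -0.43 ± 0.11 late (adjusted p = 0.389).

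Of the 10 features that had risen by 30 min 0 passed again in the late step (limma). Over all features 0.11% passed, so 0 of 10 does not set them apart. Their late steps had a median of 0.15. An interval within 0.5 was found for 8 of the 10, against 93.6% of all features, and 2, HSP12 and BIO5, were unresolved. Of the 8, 5 had an interval that excluded 0, namely BIO2, BIO3 and BIO4 above it and ACO1 and CIT2 below it. Of the biotin genes BIO5, a transporter for a biotin precursor, had a late step of 0.40 ± 0.10 (adjusted p = 0.311), and BIO3 and BIO4, enzymes of biotin synthesis, had 0.31 each. BIO5 read 1.45 and 1.56 in Hsf1-aa at 90 min, against 0.88 and 1.33 at 60 min. All 6 biotin genes lay above 0 with a median of 0.24, against 0.26 in WT-aa, and 0 passed. By unadjusted p under 0.05, 4 were higher in each strain, against 147 of all 6357 features in Hsf1-aa and 627 in WT-aa. CIT2, a peroxisomal citrate synthase, had risen by 0.85 by 30 min and had a late step of -0.20 (-0.36 to -0.03). ACO1, aconitase, had risen by 0.43 and had a late step of -0.25 (-0.37 to -0.13; adjusted p = 0.211).

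**Figure D4:**
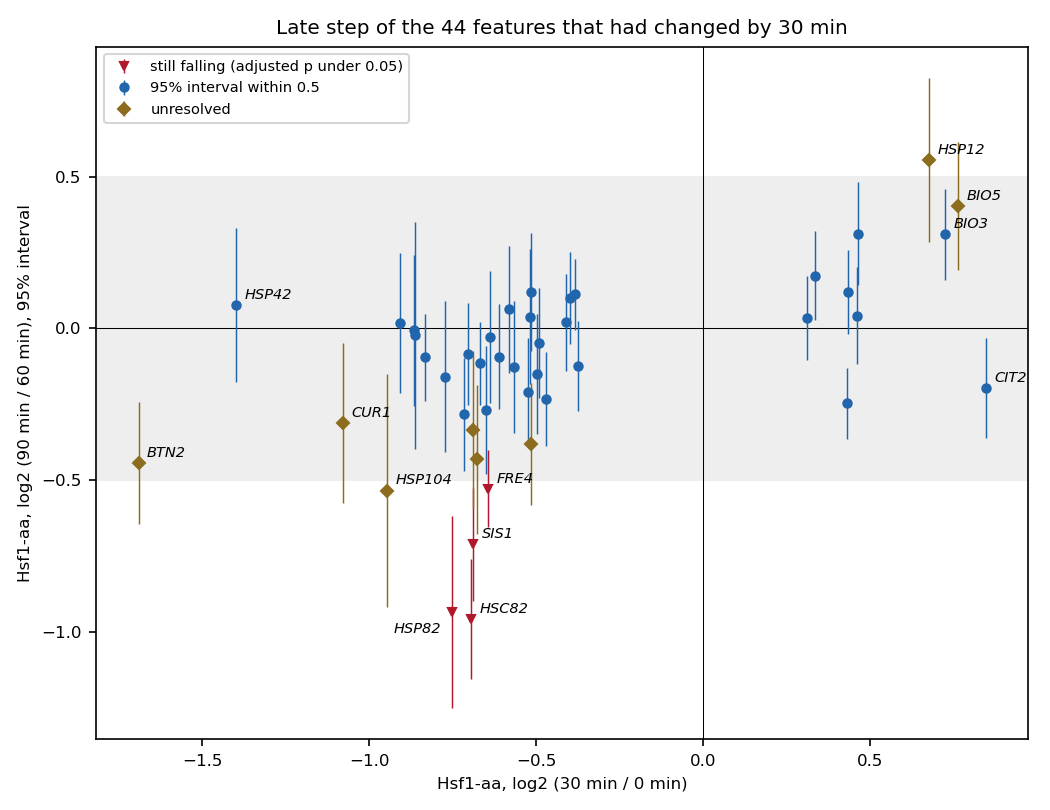
Late step with its 95% interval (log2 of 90 over 60 min, vertical) against the change by 30 min (log2 of 30 over 0 min, horizontal) in Hsf1-aa, for the 44 features that had changed by 30 min. Red triangles passed an adjusted p of 0.05 in the late step, blue circles have an interval within 0.5 (grey band), and brown diamonds are unresolved. The 4 triangles are HSP82, HSC82, SIS1 and FRE4, and 32 of the 44 intervals lie inside the band, against 93.6% of all features.

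Other chaperone groups had 0 calls from 60 to 90 min. Over all features 0.11% passed, so 0 calls do not set these groups apart. Among 15 other heat-shock-inducible genes the median late step was 0.02, among 20 genes of mitochondrial chaperones and import -0.02, among 8 genes of the cytosolic chaperonin 0.00 and among 33 proteasome genes 0.05. It was 0.02 among 7 ribosome-associated chaperone genes and 0.08 among 16 genes of folding in the endoplasmic reticulum, of which 12 lay above 0. By unadjusted p under 0.05 in limma the other heat-shock-inducible genes had 2, the endoplasmic reticulum genes 1 and the other 4 groups 0. Over all features 4.06% passed by unadjusted p. An interval within 0.5 was found for 93.6% of all features. The counts were 20 of 20 mitochondrial, 8 of 8 chaperonin, 7 of 7 ribosome-associated, 31 of 33 proteasome, 14 of 15 other heat-shock-inducible and 12 of 16 endoplasmic reticulum genes, most of them near that share.

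**Figure D5:**
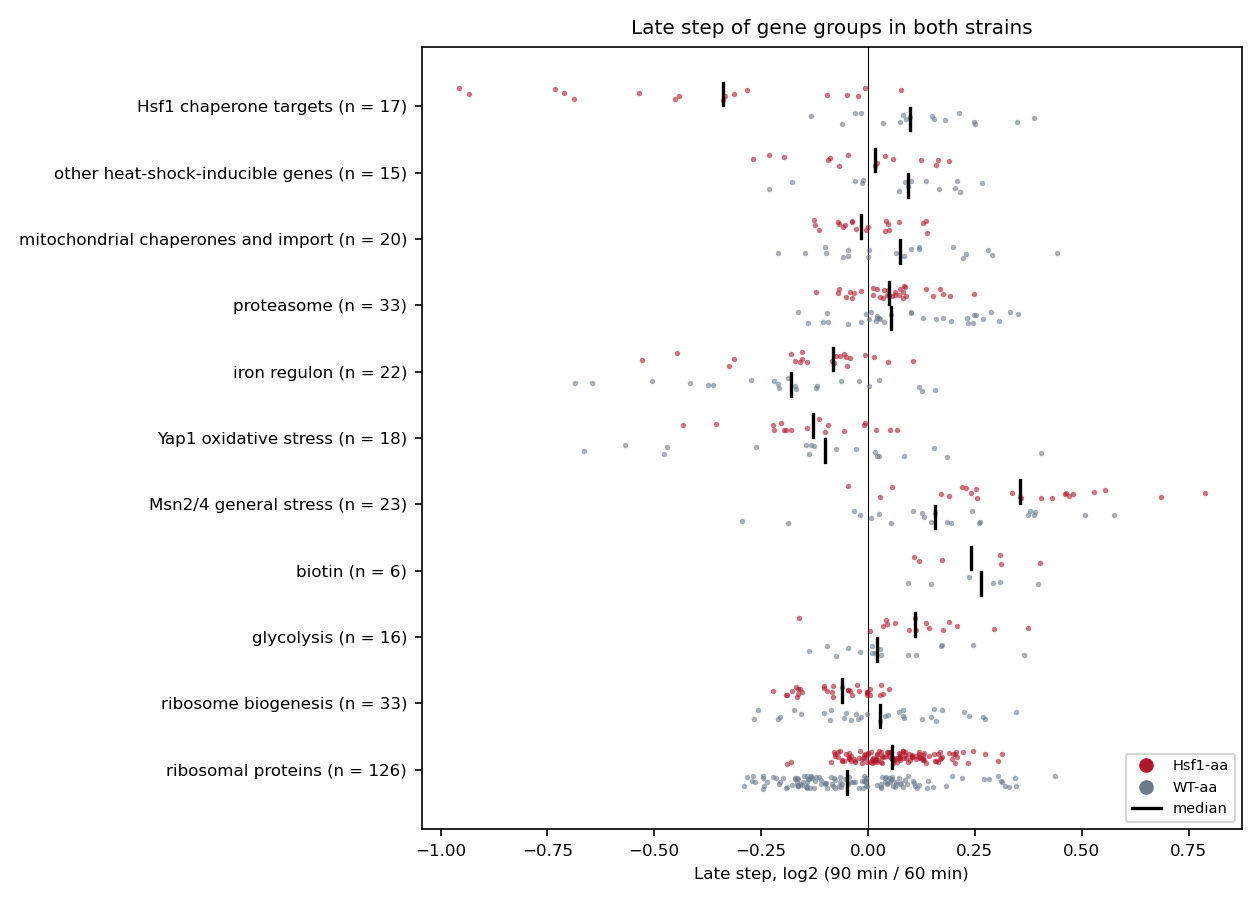
Late step (log2 of 90 over 60 min, horizontal) of single genes in 11 gene groups, in Hsf1-aa (red, upper row of each group) and WT-aa (grey, lower row), with the group median as a black bar. The Hsf1 chaperone targets have a median of -0.34 in Hsf1-aa and 0.10 in WT-aa, the general stress genes of 0.36 and 0.16, and most other medians lie near 0.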

How the data were processed

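Arrays held 15552 spots, 12776 of them for yeast. The deposited scanner files give a linear intensity per spot and dye with local background in separate columns, nothing subtracted, per the file headers. A deposited table holds log2 ratios (Cy5 over Cy3) made by the authors, with a normalization not given in the sources used here. Its column medians were -0.00704 to 0.0224, and it served as an alternative.

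Intensity was corrected by normexp (offset 50) and normalised by loess within arrays, control spots weighted 0. Every ratio was expressed as sample over reference, spots of 1 gene were averaged, and 54 symbols were updated through RefSeq. A shift common to all genes is hidden, because loess takes it out. Features above background by 2 SD on at least 2 of 20 slow arrays were tested: 5297 named genes and 1060 unnamed probes. One model of 10 groups and a dye term was fitted to the 20 slow arrays with limma 3.58.1 in R 4.3.3, leaving 9 residual and 12.54 total degrees of freedom. Tests were two-sided, with Benjamini-Hochberg adjustment over all features and a threshold of 0.05. P-values measure the spread between arrays, and the number of arrays limits the precision. A gene was called still falling or rising where its late step passed, bounded where the 95% interval lay within 0.5, and otherwise unresolved. The fit was tested on simulated data.

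Genes, lists and tests were chosen with earlier results of these data known. Named were the features past the threshold in each comparison, the 10 with the smallest unadjusted p in the late step, all chaperone targets, up to 3 members of every other list with the largest late step, and strain check genes. The examples HSP30, SSC1, MDJ1, HSP10, SSA4, PGK1 and BIO2, among the features changed by 30 min, fall outside that rule and were chosen after their values were seen. The number of columns not used was 0.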

Additional observations from a re-analysis of the deposited data

Results flagged for a closer look

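The late step differed between the strains for 2 genes by a test of the difference itself in limma. For HSC82 the Hsf1-aa step was -0.96 and the WT-aa step 0.04. They differed by -0.99 (adjusted p = 0.0288), and the call was kept under 11 of 18 alternatives. For SIS1 the Hsf1-aa step was -0.71 and the WT-aa step 0.15. They differed by -0.86 (adjusted p = 0.0316), a call kept under 8 of 18. Groups of 2 arrays were too small to look for single arrays that stood apart.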

How the results depend on the processing

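The count of calls for Hsf1-aa 90 minus 60 min (7) was 4 with median centring, 3 with no replicate block (no dye term), 0 with arrays of 1 strain or of the step only, and 1 to 7 with an array left out. The count for WT-aa 90 minus 60 min (5) was 3 with median centring, 1 with no replicate block, 44 with array quality weights, 13 with the authors' deposited log2 ratios, 510 without the 30 min arrays, 464 with the 4 arrays of the step, and 1 to 5 with an array left out. The step difference (2) gave 1 with median centring, 0 with no replicate block and 0 to 2 with an array left out. The count for Hsf1-aa 60 minus 30 min (27) gave 14 with no replicate block, 14 with weights, 44 with the deposited ratios, 15 with 1 strain and 16 to 21 with an array left out. The change of pace (4) gave 2 with weights, 1 with 1 strain and 0 to 3. The count of targets that fell (3) gave 0 with 1 strain, 0 with the 4 arrays and 1 to 4. The targets bounded within 0.5 (6) became 2 at a margin of 0.25, 12 at a margin of 1 and 4 to 5 with an array left out. The early features so bounded (32) became 8 at a margin of 0.25 and 27 to 31. The targets' median of -0.34 ranged from -0.52 to -0.23. No value changed sign with a call. The cause of these changes in the counts was not tested. Late calls were kept under 14 of 16 alternatives for HSC82, 13 for FRE4, 11 for SIS1, 10 for HSP82, 6 for FRE1, 6 for HXK1 and 4 for YLR460C. Same-letter arrays deviated together unevenly (r of -0.40 to 0.82 over 45 pairs of groups, median 0.54). For Hsf1-aa at 60 and 90 min r was 0.29. The letter was entered in the model as the dye term. Letter and dye are 1 factor, so a dye effect and any other difference between the letters cannot be told apart. A slide or scan as a block was not run, since the headers used here give none. Weights were 0.449 and 0.442 at 30 min in Hsf1-aa and WT-aa, 1.08 and 0.978 at 60 min, and 0.818 and 1.49 at 90 min. Signal over background was 19.06 to 38.06, and 2 arrays a group set the precision.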

Other observations

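Genes of respiration, glycolysis, ergosterol synthesis, ribosomes, ribosome biogenesis and the Yap1 response had 0 calls in limma in the late step of Hsf1-aa. Over all features 0.11% were called. The mean values of these groups lay mostly on one side of 0. Over all features 3160 of 6357 lay below 0, and 4.06% passed by unadjusted p under 0.05 (111 lower and 147 higher). In both dyes 19.2% of all features lay below 0 and 19.3% above. Among 28 genes of the respiratory chain and ATP synthase 24 lay above 0 (median 0.12, against 0.06 in WT-aa). Of these genes 6 were higher by unadjusted p under 0.05. The medians were 0.17 in Cy3 and 0.09 in Cy5. In both dyes 19 of the 28 lay above 0 and 1 below, with r = 0.079 between the dyes. Among 16 glycolysis genes 15 lay above 0 (median 0.11, against 0.02 in WT-aa), led by TPI1, triosephosphate isomerase, at 0.37, and 1 was higher by unadjusted p, with medians of 0.15 in Cy3 and 0.14 in Cy5. Of the 16, 8 lay above 0 in both dyes and 0 below in both, and the 2 dyes correlated at r = -0.353 across the genes. Among 21 ergosterol genes 19 lay above 0 (median 0.12, against 0.17 in WT-aa), with ERG3, a sterol desaturase, at 0.34, and 2 were higher by unadjusted p. Their Cy3 step had a median of 0.22 with 2 of 21 below 0, and their Cy5 step of 0.02 with 10 of 21 below 0. Of the 21, 9 lay above 0 in both dyes and 0 below in both, with r = -0.378 between the dyes. Among 33 ribosome biogenesis genes 27 lay below 0 (median -0.06, against 0.03 in WT-aa) and 0 passed by unadjusted p, with medians of -0.07 in Cy3 and -0.08 in Cy5. Of the 33, 13 lay below 0 in both dyes and 2 above in both, with r = -0.52 between the dyes. With median centring 20 of the 33 lay below 0. Over 126 ribosomal protein genes 94 lay above 0 (median 0.06, against -0.05 in WT-aa). The Cy3 step had a median of 0.10 and the Cy5 step of 0.01, with 59 of the 126 below 0 in Cy5. Of the 126, 39 lay above 0 in both dyes and 11 below in both, with r = -0.425 between the dyes. Among 18 genes of the Yap1 response 15 lay below 0 (median -0.13, against -0.10 in WT-aa), with FLR1 at -0.43 and OYE3, an NADPH oxidoreductase, at -0.36, and 3 were lower by unadjusted p, with medians of -0.23 in Cy3 and -0.08 in Cy5. Of the 18, 7 lay below 0 in both dyes and 1 above in both, with r = -0.236 between the dyes.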
